A study of Mus musculus with 14 samples.

Results

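Nuclear receptors, Kruppel-like factors and forkhead factors are 3 families of DNA-binding transcription factors, and they were read here in 7 mouse tissues from counts of short sequence tags. Members were chosen by the gene title that the files give: a title beginning with nuclear receptor subfamily, retinoic acid receptor, retinoid X receptor, peroxisome proliferator activated receptor, Kruppel-like factor or forkhead box, Klf1 excepted. The rule found 77 genes among the 22221 genes with counts. There were 23 members of the numbered nuclear receptor subfamilies, 8 under the retinoic acid and retinoid X receptor titles, 3 under the peroxisome proliferator title, 14 Kruppel-like factors and 29 forkhead titles. The rule reads titles and no measured value, but the families themselves were chosen with earlier results of these data known.

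The title is not always the protein. Of the 77 genes, 6 are not receptors or factors by their full title or their accession. Med1 (a subunit of the Mediator coactivator, titled as a receptor binding protein), Uimc1 (titled as a retinoid X receptor interacting protein), and Rarres1 and Rarres2 (genes named for their response to retinoids) are 4 of them. The other 2 carry the titles of Foxk1 and Foxp3, but their accessions belong to Ap5z1 and Ppp1r3f, so they are called by those symbols here. The remaining 71 are family proteins by title. Genes of the families whose titles start otherwise, such as Hnf4a or Nr1d1, are outside the rule and are described apart.

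The 14 libraries were made from total RNA of C57BL6 mice, 1 female and 1 male library from each of bone marrow, hippocampus, liver, pancreas, parotid gland, entire spinal cord and stomach. No treatment, genetic change or age is given, and the number of animals behind a library is not stated, so p-values measure the spread between these libraries only. By their titles the female liver sample was the right and the male one the left lobe, so that sex and lobe cannot be told apart there. Each library held 2194028 to 3834568 counts, of which 1922511 to 3460794 fell on genes.

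Nuclear receptors bind a small lipophilic ligand, or none that is known, and switch target genes through a zinc-finger DNA-binding domain. Many of them work as heterodimers with a retinoid X receptor, and in liver they set bile acid, lipid and drug metabolism. Kruppel-like factors bind CACCC and GC-rich elements through C-terminal zinc fingers, and forkhead factors bind DNA through a winged-helix domain. The Foxa members of the latter are known as pioneer factors of gut-derived organs, and the Foxo members as effectors of insulin signalling.

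A tag is the 20 bases that begin with a GATC site near the 3′ end of a transcript. A gene can have several, from different sites or transcript ends, and its count is the sum over its tags. Of the 77 members, 63 had 2 or more tags and 14 had 1. The tags that follow are the most abundant of the members on which the results turn, with the GATC site in capitals, from the deposited files. Those of the receptors led by liver come first, with 3 tags for Nr1i3 because they differed between tissues. Nr1h2, which liver did not lead, is set beside Nr1h4 because their tags are alike.
Nr1i3 tag 1: GATCcggatttcccagggtc
Nr1i3 tag 2: GATCagctacaagaggagat
Nr1i3 tag 3: GATCctaatttcaaggggac
Nr1i2: GATCccgacctcagacttta
Nr1h4: GATCtgggatgtgcagtgat
Nr1h2: GATCtgggatgtgcacgagt
Nr0b2: GATCtcttcttccgccctat
Ppara: GATCcacaatgtcattatca
Rxra: GATCctgggcaacttggtga

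The tags of Nr1h4 and Nr1h2, which encode the bile acid receptor and an oxysterol receptor, share their first 15 of 20 bases. Their levels are told apart by the remaining bases only. The next set covers receptors and factors led by the brain, the parotid gland or the stomach. It also holds Klf15, led by liver, and Foxm1, led by bone marrow.
Nr4a1: GATCtcttccgctctccttc
Nr4a2: GATCcctggctttgctgacc
Nr4a3: GATCgcttcagaccaaattc
Nr2f1: GATCtgtaagtacattggaa
Klf9: GATCtttacaactgtttaat
Klf15: GATCtcactcgggtgtgaag
Klf4: GATCtacattgatgacctaa
Foxa1: GATCatttgcagttaaggaa
Foxa2: GATCtgtcattctaaatagg
Foxa3: GATCgcctcttttttttcct
Foxc1: GATCattgttaaaggattgc
Foxm1: GATCagaaatgtgcttagct

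Levels are given as CPM, a count scaled to a sum of 1000000 gene counts in its library, for the female and then the male library. Zero counts allow up to 3 counts, which is 0.867 to 1.56 CPM. Tests were made with edgeR's quasi-likelihood fit on all genes, with TMM scaling. A gene was called when its adjusted p (Benjamini-Hochberg over all genes tested) was under 0.05 and its fold was at least 2. Of the 77 members, 58 had enough counts to be tested, and 53 of those are family proteins by title.

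The libraries matched their labels by defining markers. Alb, for example, was at 46078 and 30611 CPM in liver against at most 776 elsewhere, and Pgc at 84495 and 234060.0 CPM in stomach against at most 0.488. Secretory transcripts filled most of the pancreas and parotid libraries: 8 acinar markers took 676844 and 661457 CPM of pancreas, and 6 others took 662932 and 658332 CPM of parotid. All other genes therefore have low CPM there, and TMM compensates with factors of 0.184 and 0.147 in pancreas against 2.49 and 2.41 in spinal cord. The 77 members together reached 150.0 and 93.9 CPM in pancreas, 520.4 and 537 CPM in parotid, and 1934 and 1325 CPM in liver. CPM and the fold against other tissues are thus different scales, and the order of tissues can differ between them.

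Across the 7 tissues 49 of the 58 tested members varied by the F test, 84.5%, against 80.6% of all 14682 genes tested. A gene that passed the low-count filter through 1 tissue had to differ, so this share is close to the background and says nothing particular of the members. The same limit applies to such a gene's higher call in that tissue. For 35 members, 60.3%, both libraries of a tissue lay above all 12 others in CPM, against 61.4% of all genes. Tissue by tissue some shares differed from the background more, and others lay near it, such as those of hippocampus and the lower share of parotid. In liver 23 of 58 members (39.7%) were called higher, against 18.5% of all genes, and 7 (12.1%) lower, against 10.1%. In stomach 18 (31.0%) were higher, against 17.9%, and 4 (6.90%) lower, against 3.93%. In hippocampus 14 (24.1%) were higher, against 28.0%, and 6 (10.3%) lower, against 12.9%. In spinal cord 9 (15.5%) were higher, against 27.3%, and 6 (10.3%) lower, against 8.67%. In bone marrow 9 (15.5%) were higher, against 19.6%, and 13 (22.4%) lower, against 14.3%. In parotid 9 (15.5%) were higher, against 11.1%, and 2 (3.45%) lower, against 3.86%. In pancreas 7 (12.1%) were higher, against 6.33%, and 0 lower, against 3.24%. The median fold of the members in liver was 0.34 (log2) against -0.16 over all genes, or 0.20 against -0.23 with tissues at 0 counts set to the 3-count floor.

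**Figure D1:**
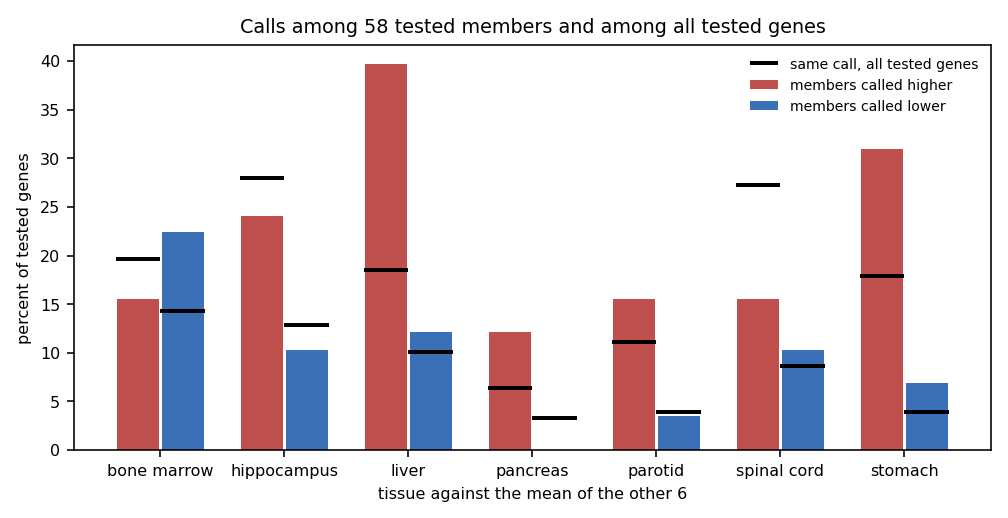
Percent of the 58 tested members called higher (red) or lower (blue) in each tissue against the mean of the other 6, with the same share over all 14682 tested genes as black lines. The red bars stand above their line in liver (39.7 against 18.5 percent) and stomach (31.0 against 17.9 percent) and below it in spinal cord (15.5 against 27.3 percent).

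These counts rest on few libraries. Of 141 member calls in the tissue and pair comparisons, 66 held when each of the 14 libraries was left out in turn. In liver 16 of 23 higher calls and 1 of 7 lower calls (Klf5) held, and in stomach 13 of 18 and 1 of 4 (Nr1i3). The higher calls of liver and stomach also held with library totals or DESeq2 size factors in place of TMM. The lower calls of hippocampus and spinal cord did not: with library totals 0 of 6 remained in each. With DESeq2 in place of edgeR the calls of Nr1i2 in liver and stomach, of Nr1h4 and Nr0b2 in stomach and pancreas, and of Nr2e1 in hippocampus were lost, among others. Calls that were lost without a library are given below as levels or with the value without it.

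**Figure D2:**
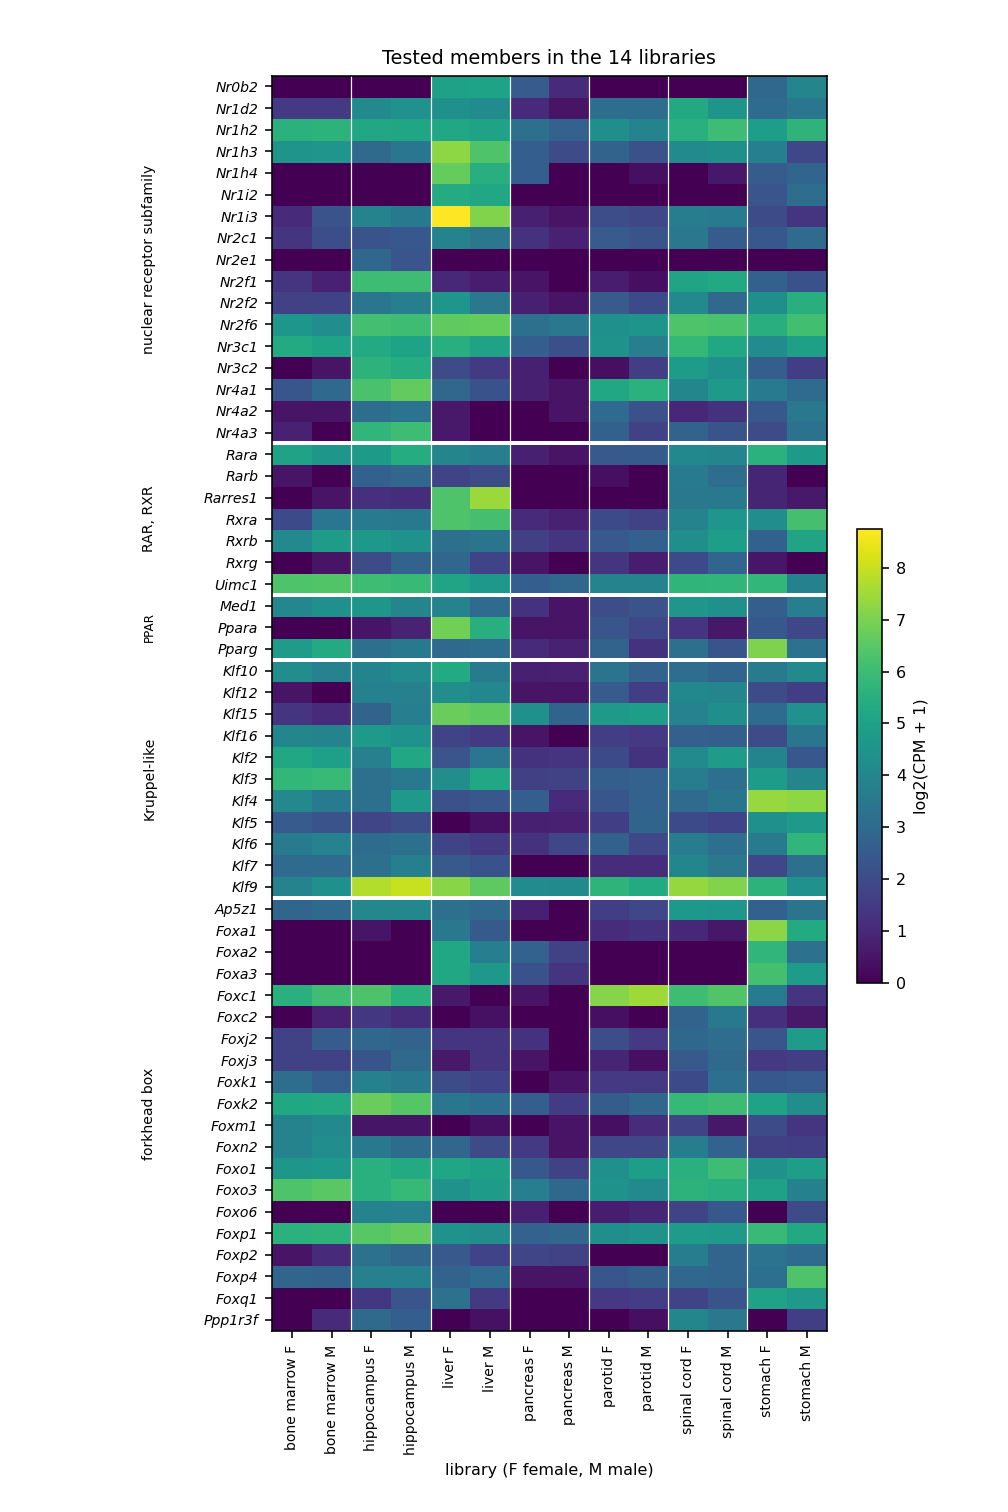
Level of each tested member as log2(CPM + 1) in the 14 libraries (columns, F female and M male), in rows by family. The bright cells of Nr1i3, Ppara, Nr1h4 and Rarres1 stand in the liver columns, those of Klf4 and Foxa1 in the stomach columns, and the pancreas columns are dark for nearly all members.

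The receptors that sense drugs and bile acids were led by liver. Nr1i3, the constitutive androstane receptor of drug metabolism, had the highest library value of any member, 428 and 134 CPM in liver (mean 281 ± 208, SD, n = 2). It was at 13.9 and 10.7 CPM in hippocampus and 12.2 and 11.5 CPM in spinal cord, and at most 3.67 CPM in the other 8 libraries. Both liver libraries lay above all others although they differed from each other, and the fold was 6.18 ± 0.28 (log2 ± SE, adjusted p = 1.41e-12). Nr1i2, the pregnane X receptor for xenobiotics, was at 40.7 and 36.9 CPM in liver, at 3.90 and 7.80 CPM in stomach, and had 0 counts in the other 10 libraries. It was called higher in liver (adjusted p = 4.19e-09) and in stomach (adjusted p = 1.52e-04). With DESeq2 in place of edgeR neither was called. Nr1h4, the bile acid receptor FXR, was at 102 and 43.8 CPM in liver, 4.77 and 6.24 CPM in stomach, and 5.06 and 0 CPM in pancreas. No other library exceeded 0.478 CPM (liver, adjusted p = 1.05e-09). Nr0b2, the receptor SHP that lacks a DNA-binding domain and represses bile acid synthesis downstream of FXR, was at 31.3 and 32.7 CPM in liver, 6.50 and 14.6 CPM in stomach, and 4.70 and 1.13 CPM in pancreas. It had 0 counts in the other 8 libraries (liver, adjusted p = 3.59e-08). Nr1i2, Nr1h4 and Nr0b2 thus also had low levels in stomach, above those of bone marrow, hippocampus, parotid and spinal cord.

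The lipid sensors and their partner followed. Ppara, the receptor that drives fatty acid oxidation, was at 116 and 44.8 CPM in liver (mean 80.4 ± 50.5, n = 2). It stood at 4.09 and 2.60 CPM in parotid, 4.33 and 2.60 CPM in stomach, and 0 counts in bone marrow (liver, adjusted p = 4.03e-12). Parotid was also called higher for it (adjusted p = 0.00136), and this call held without each library and with library totals. Nr1h3, the oxysterol receptor LXR alpha, was at 153 and 79.2 CPM in liver against 22.0 and 22.7 CPM in bone marrow, the next tissue (fold 3.58 ± 0.28, adjusted p = 4.75e-09). Rxra, the common heterodimer partner, was at 79.4 and 70.2 CPM in liver, with 18.6 and 71.3 CPM in stomach, so that the male stomach library reached the liver level. Its liver fold was 3.37 ± 0.30 (adjusted p = 2.97e-08), and its stomach fold 1.90 ± 0.34 (adjusted p = 2.69e-04). Nr2f6, an orphan receptor of the COUP family, was the most abundant of the nuclear receptor subfamilies by mean over the libraries, 50.3 CPM. It was at 97.8 and 102 CPM in liver, but no library was below 8.32 CPM, and the liver fold was 1.57 ± 0.24 (adjusted p = 3.68e-05). Nr2c1, an orphan receptor, was at 13.9 and 9.98 CPM in liver against 10.3 and 4.78 CPM in spinal cord, so that these 2 tissues overlap in CPM (liver fold 1.68 ± 0.37, adjusted p = 0.00162).

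**Figure D3:**
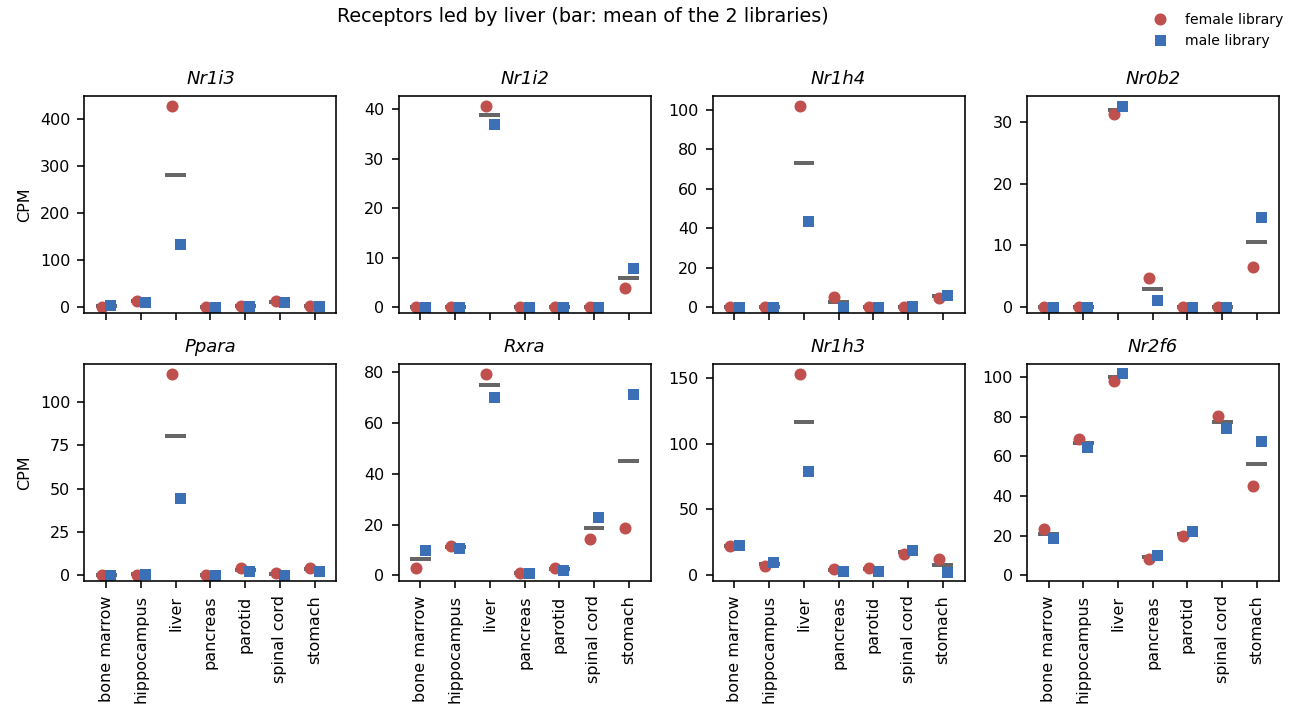
CPM of 8 receptors in each tissue, with the female library as circles, the male library as squares and their mean as a bar. Nr1i3 reaches 428 CPM in the female liver library; Nr1i2 and Nr0b2 are at 0 in most tissues, while Nr2f6 is above 8 CPM everywhere.

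Genes known as targets of these receptors were high in the same organ. Of the 12 listed targets of bile acid, oxysterol and xenobiotic receptors, all 12 tested, 10 were called higher in liver and 1 lower, against 18.5% and 10.1% of all genes, with a median fold of 8.08 (log2), or 5.21 with tissues at 0 set to the floor. Cyp8b1, a bile acid hydroxylase, was at 357 and 443 CPM in liver and at most 2.08 CPM elsewhere (adjusted p = 3.55e-12). Abcb11, the bile salt export pump, was at 311 and 208 CPM in liver and at most 0.867 CPM elsewhere (adjusted p = 1.91e-12). Cyp3a11, a drug-metabolizing oxidase, was at 4247 and 3835 CPM in liver and at most 5.42 CPM elsewhere (adjusted p = 4.49e-14). Of 12 tested PPAR targets 9 were called higher in liver, against 18.5% of all genes, 7 in parotid, against 11.1%, 6 in stomach, against 17.9%, and 5 in pancreas, against 6.33%. Of the same 12, 9 were lower in hippocampus, against 12.9%, and 8 in spinal cord, against 8.67%. Adipose markers, which share 1 gene with these targets, summed to 808 and 396 CPM in parotid and at most 192 CPM elsewhere, and their part in the parotid count was not tested. Cyp4a10, a fatty acid hydroxylase, was at 1209.8 and 575 CPM in liver and had counts otherwise only in stomach, 0.867 and 1.04 CPM. Ehhadh, a peroxisomal oxidation enzyme, was at 451 and 290.3 CPM in liver. Like Ppara, both were higher in CPM in the female than in the male liver library. Higher female CPM was common there. Over all tested genes with at least 20 counts in liver, the median log2 of male over female CPM was -0.33. The TMM factors of the female and male liver libraries, 1.18 and 0.904, would narrow these gaps.

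The 8 hepatocyte markers summed to 106864 and 107509 CPM in liver. In these bulk libraries fewer cells of a type and less RNA per cell cannot be told apart. The hepatocyte list also gave 3544 and 6903 CPM in hippocampus, where Ttr, a gene of the choroid plexus as well, is one of its members. Nr1i2, Nr1h4 and Nr0b2 had 0 counts in both hippocampus libraries. In stomach the hepatocyte list gave 2755 and 1989 CPM, against 143 to 362 CPM in bone marrow, parotid and spinal cord. The part of these markers in the stomach levels of the receptors was not tested.

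The other retinoid receptors had their highest mean CPM in stomach (Rara) or spinal cord (Rarb, Rxrb and Rxrg). Rara, the retinoic acid receptor alpha, was at 46.8 and 26.5 CPM in stomach, 26.5 and 41.9 CPM in hippocampus and 32.2 and 23.5 CPM in bone marrow, and these 3 tissues overlap. It was called higher in stomach (fold 1.59 ± 0.31, adjusted p = 6.05e-04). Rarb was low everywhere. It was at 11.2 and 7.65 CPM in spinal cord and 5.48 and 6.33 CPM in hippocampus, did not exceed 3.02 CPM elsewhere, and had 0 counts in pancreas. Its call in spinal cord (adjusted p = 0.0016) was lost without the female spinal cord library (adjusted p = 0.0551), and its calls in hippocampus and liver were lost as well without a library. Rxrb was at 1.51 to 33.8 CPM with a median of 12.9 CPM and did not pass the F test (adjusted p = 0.684). Rxrg, known from muscle and nervous tissue, stayed at or below 6.45 CPM. On the TMM scale both liver libraries lay above all others for Rxrg, and it was called higher in liver (fold 2.31). That call was lost without the female liver library (1.56). Uimc1 was the most abundant gene of these titles, at 79.9 and 82.2 CPM in bone marrow, and did not pass the F test (adjusted p = 0.112). Its call in bone marrow, 1.05 ± 0.32, was lost without either bone marrow library, without the female pancreas or spinal cord library, or without the male stomach library (0.93 to 1.22).

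Rarres1, named for its induction by a synthetic retinoid and not a receptor, was led by liver at 79.9 and 170.2 CPM. Spinal cord followed with 10.3 and 10.5 CPM, and no other library exceeded 1.26 CPM (liver, adjusted p = 6.90e-12; spinal cord, adjusted p = 8.04e-04). Here the male liver library was the higher. Among 10 tested genes of retinoid handling, 6 were called higher in liver, against 18.5% of all genes, and 4 lower in bone marrow, against 14.3%. Rbp4, the plasma carrier of retinol, was at 3203 and 3084 CPM in liver and at most 14.0 CPM elsewhere. Aldh1a1, which makes retinoic acid, was at 1216 and 1239 CPM in liver and 218 and 189 CPM in spinal cord. Cyp26a1, which degrades retinoic acid, was at 38.2 and 51.4 CPM in liver and at most 1.26 CPM elsewhere (adjusted p = 1.76e-09).

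Pparg, the regulator of fat cell formation, differed between the female and the male stomach library. It was at 133 CPM in the female and 8.84 CPM in the male stomach library. Bone marrow had 26.7 and 40.0 CPM, and the remaining libraries 0.754 to 10.7 CPM. The stomach call (fold 2.87 ± 0.52, adjusted p = 3.53e-04) came to 0.03 without the female stomach library (adjusted p = 1). The bone marrow call of 1.80 ± 0.53 came to 0.87 without the male bone marrow library (adjusted p = 0.528). Adipose markers, 5 found of 6 listed, summed to 192 and 126 CPM in stomach and 122 and 109 CPM in bone marrow, and were highest in parotid, where Pparg was at 5.85 and 1.44 CPM. Their part in the Pparg levels was not tested. Med1, the Mediator subunit, was at 0.377 to 24.0 CPM with a median of 13.2 CPM and did not pass the F test (adjusted p = 0.409).

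Of the steroid receptors in the rule, the mineralocorticoid receptor was high in the nervous tissues and the glucocorticoid receptor was broad. Nr3c2, the mineralocorticoid receptor, was at 48.9 and 41.5 CPM in hippocampus and 27.3 and 20.1 CPM in spinal cord, against 0 to 5.20 CPM in the other 10 libraries. It was called higher in both (hippocampus 3.39 ± 0.40, adjusted p = 1.11e-06; spinal cord 2.15 ± 0.44, adjusted p = 6.39e-04). Both libraries of hippocampus lay above those of spinal cord, but this pair was not called for it. Nr3c1, the glucocorticoid receptor, was at 3.39 to 55.7 CPM with a median of 32.2 CPM, and missed the F test (adjusted p = 0.0725). Of 9 glucocorticoid target genes 7 were called higher in liver, against 18.5% of all genes, and 4 lower in bone marrow, against 14.3%. In parotid 4 were lower, against 3.86%, and 2 higher, against 11.1%. Tat, a liver enzyme of tyrosine breakdown, was at 2589 and 3687 CPM in liver and at most 3.03 CPM elsewhere. The metallothioneins Mt1 and Mt2 were at 893 and 589.6 CPM and 589.5 and 288 CPM in liver, and at 801 and 554 CPM and 134 and 96.5 CPM in pancreas.

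Of the cofactors that receptors recruit, 8 of 14 tested coactivators, Med1 included, and 4 of 7 tested corepressors passed the F test, against 80.6% of all genes. Ppargc1a and Ppargc1b, coactivators of energy metabolism, were at 0.734 CPM or less in bone marrow (folds -3.57 ± 0.90, adjusted p = 0.00391, and -3.16 ± 0.95, adjusted p = 0.0125). Ncoa4, also a ferritin receptor, was at 135 and 154 CPM in bone marrow (fold 2.03 ± 0.25, adjusted p = 2.61e-06). Ncoa7 was at 47.4 and 47.8 CPM in spinal cord, and Pnrc1 at 55.1 and 73.5 CPM in liver. Of the corepressors Hdac3 was at 158 and 137 CPM in hippocampus, while Sin3b was called in no tissue.

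The orphan receptors of the Nr4a subfamily, immediate-early genes that need no ligand, were all 3 called higher in hippocampus and all 3 in parotid. Not all of these calls held without each library. Nr4a1 was at 74.6 and 98.9 CPM in hippocampus, 36.2 and 47.1 CPM in parotid, 15.1 and 25.8 CPM in spinal cord, and 0.377 to 10.8 CPM in the other 8 libraries. In CPM hippocampus was above all others, while on the TMM scale parotid was. The folds against the other 6 tissues were 2.25 ± 0.28 in hippocampus (adjusted p = 2.19e-06) and 3.36 ± 0.27 in parotid (adjusted p = 2.73e-08), and both calls held without each library. Nr4a3 was at 53.5 and 63.7 CPM in hippocampus and at most 8.84 CPM, in the male stomach library, elsewhere, with 0 counts in pancreas (hippocampus, adjusted p = 1.04e-07). Nr4a2, also known from dopamine neurons, was lower: 8.0 and 9.10 CPM in hippocampus, 7.31 and 3.47 CPM in parotid, 4.33 and 10.4 CPM in stomach, and at most 1.43 CPM elsewhere. Its 3 higher calls, in hippocampus, parotid and stomach, were each lost without a library of that tissue (adjusted p = 0.0811, 0.0803 and 0.139). Nr4a3 was at 5.55 and 2.31 CPM in parotid, and its call there was lost with library totals and without the female parotid library (adjusted p = 0.346).

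The promoters of the 3 Nr4a genes are shown because the genes were called together in hippocampus and in parotid, and because cyclic AMP signalling is known to induce them. RefSeq windows of 300 bases (GRCm38.p6, 250 before the transcript start and 50 from it on) were found for 61 of the 77 members, 79 windows in all. Capitals mark TGACG, the half-site of the cyclic AMP response element, on either strand (CGTCA is the same letters on the other). Nr4a1 lies on the plus strand of chromosome 15 at chr15:101266596-101266895, Nr4a2 on the minus strand of chromosome 2 at chr2:57123954-57124253, and Nr4a3 on the plus strand of chromosome 4 at chr4:48045055-48045354.
Nr4a1: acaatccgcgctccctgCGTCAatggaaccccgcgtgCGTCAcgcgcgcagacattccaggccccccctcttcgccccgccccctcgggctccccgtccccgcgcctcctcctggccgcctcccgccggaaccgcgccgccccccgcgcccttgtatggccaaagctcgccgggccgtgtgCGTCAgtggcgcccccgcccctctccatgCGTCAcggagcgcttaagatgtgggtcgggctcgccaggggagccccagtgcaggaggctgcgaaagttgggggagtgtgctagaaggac
Nr4a2: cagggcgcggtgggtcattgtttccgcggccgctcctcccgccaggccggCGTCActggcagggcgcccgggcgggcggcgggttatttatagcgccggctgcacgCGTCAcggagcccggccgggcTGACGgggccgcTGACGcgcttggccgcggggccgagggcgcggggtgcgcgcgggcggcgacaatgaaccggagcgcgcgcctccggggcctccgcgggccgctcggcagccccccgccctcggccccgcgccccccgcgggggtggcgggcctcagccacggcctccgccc
Nr4a3: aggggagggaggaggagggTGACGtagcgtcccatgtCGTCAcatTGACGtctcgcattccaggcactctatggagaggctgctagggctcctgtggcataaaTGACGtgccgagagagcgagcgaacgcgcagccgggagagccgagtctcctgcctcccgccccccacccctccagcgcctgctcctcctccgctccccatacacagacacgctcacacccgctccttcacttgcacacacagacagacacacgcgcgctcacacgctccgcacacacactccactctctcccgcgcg

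Each of the 3 windows held 4 matches. Over all 32851 windows 20.8% held at least 1 match and 76 windows, 0.231%, held 4 or more. Among the 79 member windows 31 held at least 1, 39.2%. The matches lay between -233 and -40 in Nr4a1, between -200 and -111 in Nr4a2 and between -231 and -147 in Nr4a3, counted from the transcript start. Another 3 motifs were searched in the same way, overlapping matches counted separately. AGGTCA, the nuclear receptor half-site, was in 15.2% of member windows and 16.3% of all. TGTTTAC, a forkhead core, was in 5.06% and 3.65%, and CCACCC, a box bound by Kruppel-like factors, in 48.1% and 31.5%. The motifs were chosen with the expression values known, and a match describes letters only.

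Of other orphan receptors, Nr2f1 and Nr2e1 were led by hippocampus. Nr2f1, COUP-TFI of cortical patterning, was at 64.0 and 63.7 CPM in hippocampus and 33.2 and 38.7 CPM in spinal cord, against 0 to 5.63 CPM elsewhere. Its folds were 4.0 ± 0.31 (adjusted p = 5.27e-09) and 2.91 ± 0.34 (adjusted p = 1.52e-06), and the 2 tissues do not overlap in CPM. Its relative Nr2f2 had another order, with 19.5 and 44.7 CPM in stomach, 23.3 and 9.98 CPM in liver and 17.1 and 7.17 CPM in spinal cord (stomach fold 2.35 ± 0.36, adjusted p = 5.01e-05). Nr2e1, the receptor TLX of neural stem cells, had 26 counts in all, each of them in hippocampus (6.74 and 3.95 CPM, adjusted p = 2.49e-04), a call that DESeq2 did not make. It passed the low-count filter through hippocampus alone, so a higher call there was largely set beforehand and adds nothing to the levels. Oligodendrocyte markers, at 4149 and 4522 CPM in hippocampus, reached 17585 and 17424 CPM in spinal cord, while excitatory neuron markers were at 2579.8 and 2702 CPM in hippocampus against 40.5 and 44.5 CPM in spinal cord. Their part in the difference of these receptors between both tissues was not tested.

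The remaining nuclear receptors, Nr1h2 and Nr1d2, had counts in every library. Nr1h2, the ubiquitous oxysterol receptor LXR beta, was at 5.66 to 65.0 CPM with a median of 35.3 CPM and missed the F test (adjusted p = 0.0682). Nr1d2, the clock component Rev-erb beta, was at 38.6 and 22.0 CPM in spinal cord, 17.3 and 20.6 CPM in hippocampus and 19.8 and 17.8 CPM in liver. In CPM spinal cord lay above all others, while on the TMM scale liver did. It was called higher in liver (fold 1.58 ± 0.31, adjusted p = 4.69e-04), a call that held without each library and with each scaling, and in parotid (1.12 ± 0.33, adjusted p = 0.0262), a call lost without either parotid library (adjusted p = 0.229 and 0.255). It was 1.83 CPM in both bone marrow libraries, where it was called lower (fold -2.89 ± 0.46, adjusted p = 5.67e-05).

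Of the receptors with other titles, 10 of 15 listed were tested and all 10 passed the F test, against 80.6% of all genes. Hnf4a, a core factor of liver identity, was at 58.6 and 64.1 CPM in liver and 5.63 and 23.9 CPM in stomach, and at most 0.956 CPM elsewhere. Thra, the thyroid hormone receptor alpha, was at 381 and 375 CPM in hippocampus and 141 and 156 CPM in spinal cord. Of the 10 tested, 6 were called lower in bone marrow, against 14.3% of all genes. Nr1d1, the neighbour of Thra on the opposite strand, was at 88.3 and 31.4 CPM in liver and 0.733 and 1.10 CPM in bone marrow (fold -5.34 ± 0.70, adjusted p = 5.97e-06). The bone marrow level thus was low for both Rev-erb genes. Ppard was at 54.2 and 42.7 CPM in stomach, where it was called higher (fold 2.44 ± 0.30, adjusted p = 3.44e-06), and Rarg at 3.90 and 19.8 CPM there.

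Klf9, a hormone-responsive factor of neurons and other cells, was the most abundant member over all libraries, with a mean of 88.2 CPM and no library below 13.9 CPM. It was at 214 and 255 CPM in hippocampus, 164 and 136 CPM in spinal cord, 145 and 94.9 CPM in liver, and 13.9 and 19.8 CPM in bone marrow. Spinal cord and liver overlap, and hippocampus lies above both in CPM. On the TMM scale hippocampus, at 94.6 and 113, overlaps with liver, at 123 and 105. Its liver fold of 1.17 ± 0.28 (adjusted p = 0.00288) lost its call without either liver library (adjusted p = 0.0622 and 0.052). Its bone marrow fold of -2.66 ± 0.38 held without each library (adjusted p = 1.79e-05). Its hippocampus fold of 1.03 ± 0.28 came to 0.77 without the male hippocampus library (adjusted p = 0.225) and to 0.94 without the male stomach library. Klf15, a regulator of glucose and amino acid metabolism, was at 106 and 94.6 CPM in liver, 24.8 and 28.3 CPM in parotid and 1.47 and 1.10 CPM in bone marrow. It was called higher in liver (3.29 ± 0.30, adjusted p = 3.67e-08) and parotid (2.09 ± 0.33, adjusted p = 1.37e-04) and lower in bone marrow (-4.55 ± 0.58, adjusted p = 4.47e-06). Klf12, a repressor, had the same low end in bone marrow, 0.366 and 0 CPM, against 18.9 and 15.4 CPM in liver (liver fold 2.84 ± 0.37, adjusted p = 4.74e-06).

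The epithelial Kruppel-like factors were led by stomach. Klf4, known from barrier epithelia and reprogramming, was at 166 and 153 CPM in stomach (mean 159.7 ± 8.87, n = 2), against at most 25.3 CPM in any other library (fold 4.07 ± 0.30, adjusted p = 4.56e-09). Klf5, known from proliferating epithelium, was at 19.9 and 25.0 CPM in stomach, at most 6.07 CPM elsewhere and 0.302 CPM or less in liver (stomach fold 3.28 ± 0.38, adjusted p = 2.01e-06). Klf6 was at 11.3 and 53.1 CPM in stomach, and its call there came to 0.72 without the male stomach library (adjusted p = 0.288). In the same libraries gastric gland markers summed to 94773 and 246579 CPM, stratified epithelium markers to 2815 and 3421 CPM and smooth muscle markers to 10332 and 7096 CPM. Outside stomach the stratified list did not exceed 519.7 CPM. The part of these markers in the levels was not tested.

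Bone marrow led a different set. Klf3, a repressor active in blood lineages, was at 53.9 and 60.5 CPM in bone marrow and at most 36.9 CPM, in the male liver library, elsewhere (fold 1.94 ± 0.30, adjusted p = 4.08e-05). Klf2, known from lymphocytes and endothelium, was at 37.0 and 29.7 CPM there, but the male hippocampus library reached 36.8 CPM, and its bone marrow call was lost without the female bone marrow library (1.26, adjusted p = 0.169). Klf16 was at 25.3 and 21.4 CPM in hippocampus and 15 and 13.9 CPM in bone marrow, and was called higher in both (1.75 ± 0.38, adjusted p = 9.61e-04, and 1.68 ± 0.40, adjusted p = 0.0023), the bone marrow call being lost without the female library (adjusted p = 0.0528). Klf10 was at 39.7 and 11.2 CPM in liver, a call lost without the female liver library (0.83, adjusted p = 0.274), and Klf7 passed no test. Of the related Sp factors, 4 of 6 tested passed the F test, against 80.6% of all genes. Sp1 was at 65.6 and 60.9 CPM in bone marrow, Sp6 at 3.90 and 8.32 CPM in stomach, and Sp7 at 4.63 and 3.16 CPM in hippocampus and 4.88 and 3.35 CPM in spinal cord.

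**Figure D4:**
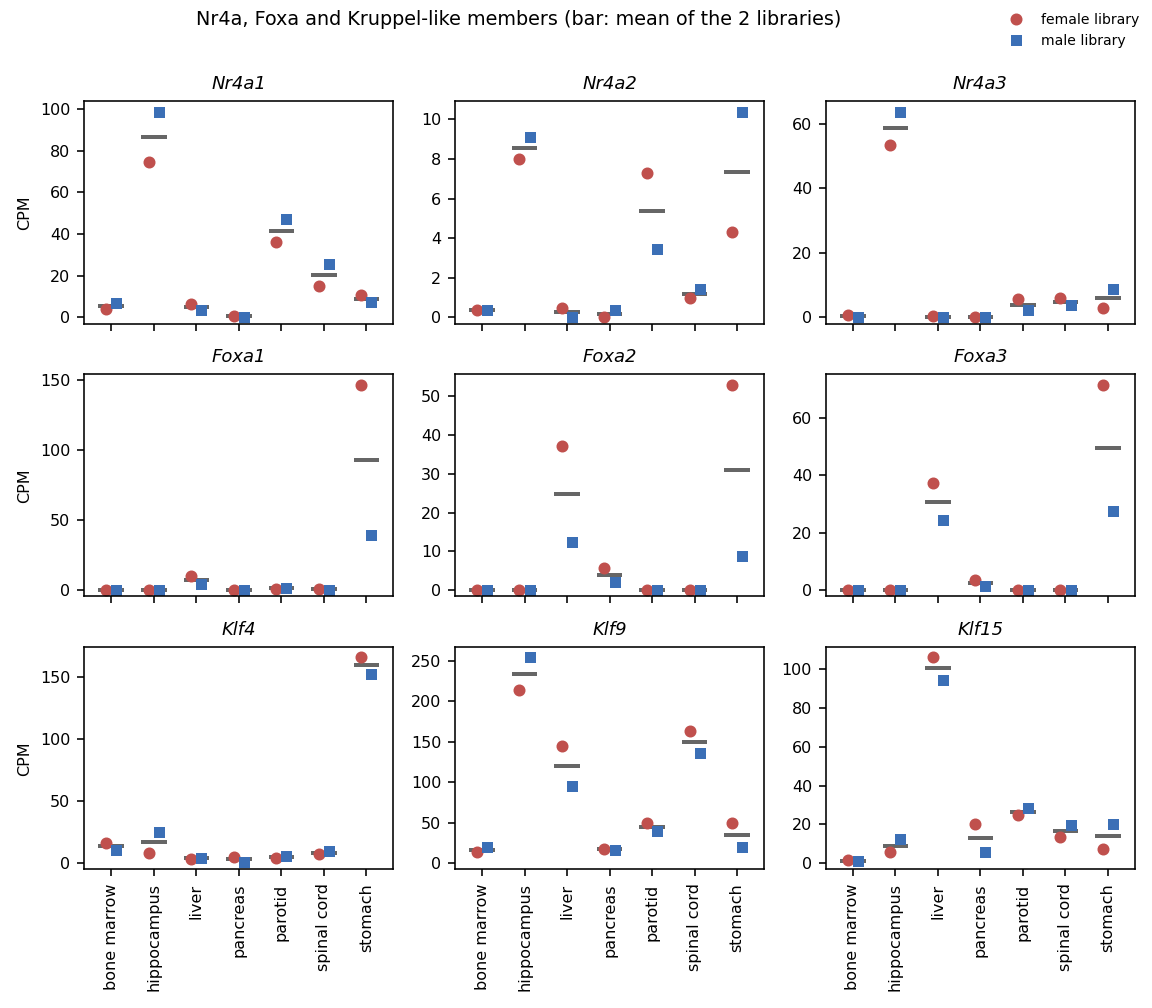
CPM of the 3 Nr4a receptors, the 3 Foxa factors and 3 Kruppel-like factors in each tissue, with the female library as circles, the male library as squares and their mean as a bar. The Nr4a panels peak in hippocampus except for the male stomach library of Nr4a2 (10.4 CPM). The Foxa panels are at or near 0 in bone marrow, hippocampus and spinal cord, and Klf4 stands at 166 and 153 CPM in stomach.

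The Foxa factors had their highest levels in stomach and liver, and Foxa2 and Foxa3, but not Foxa1, also had counts in pancreas. Foxa1 was at 147 and 39.5 CPM in stomach and 10.4 and 4.54 CPM in liver (stomach, adjusted p = 2.65e-10). It was at 1.17 and 1.44 CPM in parotid and at most 0.977 CPM in the nervous tissues, with 0 counts in pancreas and bone marrow. Foxa2 was at 52.9 and 8.84 CPM in stomach, 37.2 and 12.4 CPM in liver and 5.78 and 2.26 CPM in pancreas. Foxa3 was at 71.5 and 27.6 CPM in stomach, 37.2 and 24.5 CPM in liver and 3.62 and 1.51 CPM in pancreas. Both had 0 counts in all 8 libraries of bone marrow, hippocampus, parotid and spinal cord. They were called higher in stomach (Foxa2, adjusted p = 4.31e-07; Foxa3, adjusted p = 1.86e-08), liver (adjusted p = 1.48e-07 and 1.98e-08) and pancreas (adjusted p = 2.48e-05 and 1.75e-04). These 6 calls and those of Foxa1 in stomach and liver held without each library. In stomach all 3 were lower in the male library, which had the higher sum of gastric gland markers. Foxq1, a factor of gastric mucus cells, was at 31.6 and 25.0 CPM in stomach, 8.93 and 1.81 CPM in liver and at most 3.95 CPM elsewhere (stomach, adjusted p = 8.88e-07). Other listed liver-enriched factors were called higher in liver in 8 of 8 cases, against 18.5% of all genes, with a median fold of 4.29, or 3.06 with zeros at the floor. Cebpa was at 179 and 112 CPM and Cebpb at 207 and 363 CPM in liver, while Gata4 was higher in stomach, 51.1 and 41.1 CPM, than in liver, 10.9 and 7.56 CPM.

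Foxc1, a factor of mesenchyme and eye development, was led by parotid at 142 and 181 CPM (mean 161 ± 27.0, n = 2). Spinal cord had 64.5 and 81.8 CPM, hippocampus 77.1 and 47.1 CPM and bone marrow 46.2 and 65.7 CPM, and these 3 overlap. Liver and pancreas were at 0.496 CPM or less, and stomach at 10.8 and 1.56 CPM. The parotid fold was 5.64 ± 0.36 (adjusted p = 1.00e-09) and held under each scaling. Foxc2 was low, at 5.86 and 10.5 CPM in spinal cord and at most 1.69 CPM elsewhere, and its call (adjusted p = 8.73e-04) was lost without the male spinal cord library (adjusted p = 0.0971).

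Foxm1, which drives mitotic genes, was at 13.9 and 17.2 CPM in bone marrow and at most 3.03 CPM, in the female stomach library, elsewhere (fold 4.0 ± 0.49, adjusted p = 2.87e-06). Of the Foxo factors, Foxo3 and Foxo1 had counts in every library and Foxo6 did not. Foxo3 was at 79.9 and 91.0 CPM in bone marrow and 6.79 CPM or more in every library, with a bone marrow fold of 1.14 ± 0.29 that came to 1.0 without the male bone marrow library (adjusted p = 0.122). Foxo1 was at 45.4 and 64.1 CPM in spinal cord, 45.5 and 39.9 CPM in hippocampus and 34.7 and 30.5 CPM in liver, while on the TMM scale parotid lay above all others. Foxo6, known from brain, was at 13.9 and 13.8 CPM in hippocampus, 2.44 and 4.30 CPM in spinal cord and at most 3.12 CPM elsewhere, with 0 counts in bone marrow and liver (hippocampus, adjusted p = 1.19e-04). Of 8 tested FoxO target genes 5 were called higher in liver, against 18.5% of all genes, and 3 in parotid, against 11.1%. G6pc, Pck1 and Igfbp1, which serve glucose output and insulin-like growth factor binding, were at 72.4 and 108, 1838 and 2836, and 368 and 566 CPM in liver, each higher in the male library.

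Foxp1, a factor of B cells and neurons, was at 87.2 and 98.5 CPM in hippocampus, 59.4 and 38.5 CPM in stomach and 5.78 CPM or more in every library. Foxk2 was at 107 and 85.4 CPM in hippocampus and 57.6 and 62.6 CPM in spinal cord (hippocampus fold 1.34 ± 0.26, adjusted p = 3.59e-04). Foxn2 was at 13.9 and 18.7 CPM in bone marrow, a call lost without the male library (1.07, adjusted p = 0.152). Foxp4 and Foxj2 were called higher in stomach on the male library: Foxp4 was at 8.23 and 79.1 CPM and Foxj2 at 3.90 and 27.6 CPM. Without that library their folds came to 0.64 (adjusted p = 0.457) and 0.11 (adjusted p = 1). The ids under the titles of Foxk1 and Foxp3 that belong to Ap5z1 and Ppp1r3f were led by spinal cord, at 24.4 and 23.4 CPM and, for the latter, 15.1 CPM in the female library, with the male library also above all 12 of the other tissues. The call of Ppp1r3f there was lost without the female spinal cord library (adjusted p = 0.0503), and that of Ap5z1, 1.02 ± 0.34, without any of 7 libraries (0.89 to 1.10).

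Hippocampus and spinal cord, both nervous tissue, were compared directly. Of the members, 6 were called higher in hippocampus, against 3.26% of all genes, and 1 higher in spinal cord, against 3.12%. The 6 were Nr4a3 (fold 3.71 ± 0.59, adjusted p = 8.18e-04), Nr4a1 (2.20 ± 0.40, adjusted p = 0.00202), Foxp1 (1.92 ± 0.37, adjusted p = 0.00304), Klf16 (2.23 ± 0.52, adjusted p = 0.012), Nr2e1 and Nr4a2 (2.85 ± 0.77, adjusted p = 0.0333). Rarres1 was the one higher in spinal cord (-2.92 ± 0.64, adjusted p = 0.0102), and with the family proteins alone that count is 0. Only Nr4a3 kept its call without each library. The others were each lost without at least 1 library of these tissues: Nr4a1 without the female spinal cord library (1.91, adjusted p = 0.106), Foxp1 without the male hippocampus or either spinal cord library, Rarres1 without the male hippocampus (-2.40, adjusted p = 0.262) or female spinal cord library. Klf16 and Nr4a2 lost theirs without any of the 4, and Nr2e1 without 9 of the 14 libraries. The count of 6 became 12 without the female stomach and 1 without the female spinal cord library.

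Pancreas and parotid, both glands of acinar cells, differed in 7 members, and the scale matters here. Foxa2, Foxp2, Foxa3, Nr0b2 and Nr1h4 were called higher in pancreas, against 2.84% of all genes, and Foxc1 and Nr4a1 higher in parotid, against 3.47%. Foxa2 and Foxa3 had 0 counts in parotid, as had Nr0b2 and Foxp2 (2.53 and 2.26 CPM in pancreas). Their adjusted p-values were 5.39e-04, 0.00123, 0.00191 and 7.18e-04. Those of Foxc1 and Nr4a1 were 1.19e-05 and 1.30e-04. Nr1h4 (adjusted p = 0.0143) had 14 counts in the female and 0 in the male pancreas library, and without the female library the fold turned to -2.84 (adjusted p = 0.961). Nr0b2 lost its call without the same library (adjusted p = 0.0945), and DESeq2 called neither. Pancreatic islet markers were at 224 and 145 CPM in pancreas and 2.34 and 1.44 CPM in parotid, and their part in the Foxa levels was not tested.

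Against the other 6 tissues, 7 members were called higher in pancreas although none had its highest CPM there. Klf9, at 17.7 and 16.6 CPM in pancreas, had a fold of 1.03 ± 0.31 with TMM (adjusted p = 0.0429) and of -2.01 with library totals, where it was called lower. The TMM call of Klf9 was lost without the female (1.25) or the male pancreas library (0.75), and also without libraries of other tissues. Klf15, at 20.2 and 6.03 CPM, had 2.96 ± 0.37 with TMM and -0.04 with library totals. Its TMM call was lost without the female pancreas library (1.73). With library totals 42 of the 58 tested members were called lower in pancreas. So were 10431 of all 14682 genes tested, and the lower calls were thus not particular to the members. Called higher were 193 of all genes and 4 members (Foxa2, Foxa3, Nr0b2 and Nr1h4). Of those 4 only Foxa2 and Foxa3 held without each library. Without the female pancreas library Nr1h4 came to -3.6 and Nr0b2 to 4.5 (adjusted p = 1 and 0.0616).

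Between male and female libraries over the 7 tissues 0 members were called by edgeR, against 0.0477% of all genes higher in male and 0.0136% higher in female. Unadjusted, 6 of 58 had p under 0.05 in edgeR and 1 in DESeq2, which called 0 as well, and the smallest adjusted p was 0.6. Within liver, values can be set side by side without a test. Of 40 members with at least 20 counts there, 9 were at least 2 times higher in the female library and 2 in the male (Klf2 and Rarres1). Over all genes 10.5% were that much higher in the female and 1.66% in the male liver library, whose lobe differed as well. The 9 were Foxa1, Foxa2, Foxq1, Klf10, Nr1h4, Nr1i3, Nr2f2, Ppara and Rxrg. In stomach 13 of 43 members were that much higher in the male and 10 in the female library, with 25.8% and 21.6% of all genes. In hippocampus it was 2 of 46 (Klf2 and Klf4), with 1.34% of all genes.

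Which tag carried a gene's counts also differed between tissues. Foxo1 had 2 main tags, shown for their reversed order between organs.
Foxo1 tag 1: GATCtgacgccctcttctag
Foxo1 tag 2: GATCccagtgtgaatcatgg

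Tag 1 held 7 of 70 Foxo1 counts of the female and 9.90% of the male liver library and 24.6% and 22.0% in parotid, against 53.7% and 57.4% in hippocampus and 63.4% and 72.4% in spinal cord. Tag 2 held 61.4% and 43.6% in liver, 55.1% and 54.0% in parotid, 29.6% and 26.7% in hippocampus and 32.3% and 20.9% in spinal cord. The libraries of liver and parotid do not overlap with those of the nervous tissues for either tag, on 69 to 134 counts per library. Bone marrow and stomach libraries differed within the tissue, at 73.8% and 45.5% and at 68.0% and 38.2% for tag 1. This difference was noticed in the data and not tested.

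**Figure D5:**
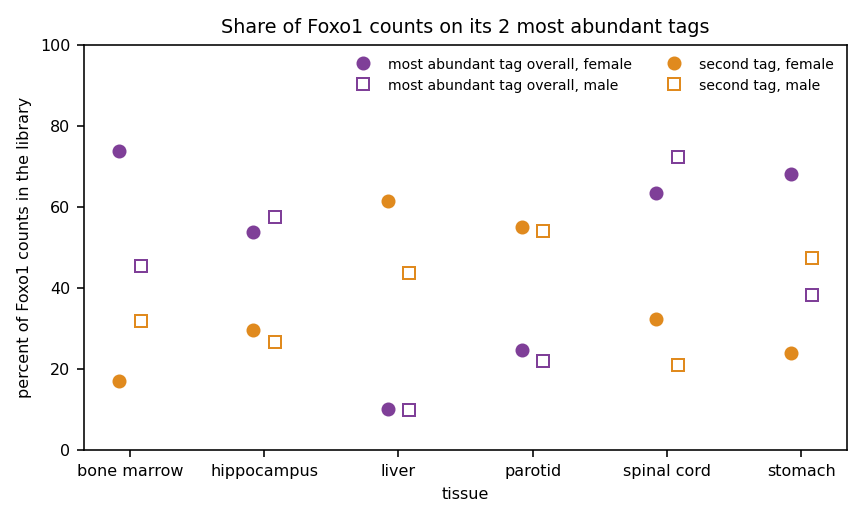
Share of the Foxo1 counts of a library on its most abundant tag (purple) and on the second tag (orange), circles female and squares male, for tissues with at least 20 counts in both libraries. Tag 1 stands at 9.90 percent in the male liver library and at 63.4 and 72.4 percent in spinal cord.

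For Nr1i3 the tags split by organ. Tags 1 and 2 held 452 and 315 counts in the female and 137 and 263 in the male liver library, and 10 counts in all other libraries together. Tag 3 had 6 and 4 counts in liver, but 30 and 17 in hippocampus, 18 and 15 in spinal cord and 11 and 7 in parotid. The low Nr1i3 level outside liver was thus mostly carried by a tag that liver hardly had. The ratio of tag 1 to tag 2 was above 1 in the female and below 1 in the male liver library. Klf2 has a pair of tags, GATCtttggaggaaaaaaaa and GATCtttggaggaatcacgg, that share their first 14 bases, and the former ends in 8 a. It held 61.5% of the 501 Klf2 counts and the other 20.2%. The remaining tag held 18.4%, and Klf2 levels rest on all 3.

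The 19 members that were not tested had few counts in any library. Klf13 had 71 counts, Nr6a1 36, Rarres2 33, Klf8 19, Foxd3 17, Foxi1 13, Foxf1 12, Foxp3 11, Nr1h5 10, Foxd4 7, Foxi2 4, Nr5a2 3, and Klf14 and Nr5a1 2 each. Nr2e3, Foxr1, Foxd1, Foxe1 and Nr2c2 had 1 count each. Some of these few counts fell in 1 tissue: all 13 of Foxi1, a factor of ion-transporting cells, in parotid, all 10 of Nr1h5 in liver and all 7 of Foxd4 in bone marrow. An id titled as Foxn1 had 0 counts on the tag classes used and is not among the 77.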

How the data were processed

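Tag counts were deposited per library: each row held a tag, its whole-number count, a UniGene id, a class code and a title. Per the labels' protocols, DpnII cut the cDNA and MmeI released 20-base tags for massively parallel signature sequencing. For the annotation build, the tag-to-gene method and the code legend the status is: not given in the sources used here. Codes 1 to 4 were read as tags on the gene's own strand, and their counts were summed per id. Symbols came from RefSeq accessions in the files.

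The members and gene lists were chosen with earlier results of these data known. Tests used edgeR 4.0.16 in R 4.3.3 on the counts of 14682 genes kept by filterByExpr, with TMM scaling and terms for tissue and sex, which left 6 residual degrees of freedom. Each tissue was tested against the mean of the other 6. Named members were up to 5 per tissue called higher with both libraries above all 12 others, the 3 with the highest mean CPM per family, up to 5 per direction in the pair comparisons and all those left out by the filter. Others named, such as Nr1h3, Nr4a2, Nr2f2, Foxo1, Klf2, Klf3, Klf12, Nr1d2, Ppargc1a and Ppargc1b, were chosen after their values were seen. In simulated counts with 4-fold changes in 100 genes each way, 97 higher and 66 lower changes were recovered in the liver comparison, with 5 false calls among 13015 genes. The simulated libraries shared the same gene proportions apart from these changes, and 1 dispersion served all genes. They lacked the uneven composition of the real tissues (TMM factors of 0.147 to 2.49), so the false calls cannot be carried over to the real comparisons. Alternatives were library totals, DESeq2 size factors, DESeq2 1.42.0, no filter, no sex term, other tag choices, each library left out and, added after seeing the data, the members without 6 ids that name no factor. Limits of zero counts cover counting error only.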

Additional observations from a re-analysis of the deposited data

Results flagged for a closer look

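Some members had more counts in tag classes outside those used than within them. The classes 11 to 16, read here as the reverse strand, held 172 counts of Rarres2 against 33 in codes 1 to 4, 38 of Nr6a1 against 36, 8 of Nr2c2 against 1, 5 of Klf14 against 2, and 196 of Foxq1 against 185. Codes 5 and 6, read as other sites, held 367 counts of Foxj3 against 82, 17 of Nr5a2 against 3 and 4 of Foxd1 against 1. There were no control samples. These counts are sums over the 14 libraries, while the 3 counts that a count of 0 allows hold for 1 library, so they cannot be set against that limit. What the classes stand for was not tested.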

How the results depend on the processing

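When library totals replaced TMM, the median fold of all genes moved from -0.59 to -3.26 in pancreas, 0.15 to 1.45 in hippocampus, 0.25 to 1.69 in spinal cord and -0.02 to -1.03 in parotid. Of 141 calls 114 remained, and 139 with DESeq2 size factors. The sign turned for Rxra in hippocampus (-1.15 to 0.19), Klf9 (1.03 to -2.01) and Klf15 (2.96 to -0.04) in pancreas, and Klf15 in spinal cord (-1.19 to 0.30). Of the 58 tested members, 16 were then called higher in bone marrow, 32 in hippocampus, 4 in pancreas, 5 in parotid and 30 in spinal cord. Over all 14682 genes the same calls numbered 4652, 8739, 193, 751 and 9840. Members called lower came to 8 in bone marrow, 0 in hippocampus and spinal cord, 42 in pancreas and 14 in parotid. There was 1 in stomach, and 27 were lower in pancreas against parotid. All genes called lower numbered 1246 in bone marrow, 475 in hippocampus, 157 in spinal cord, 10431 in pancreas and 3466 in parotid. In stomach they were 204, and in pancreas against parotid 6810. DESeq2 gave 21 members lower in bone marrow and 3 higher in pancreas against parotid, with 3062 and 543 of all genes. With code 1 tags alone, 31 members varied across tissues. Members without such tags, Ppara among them, could not be called, so this count cannot be set against 58. Members called were 5 lower in bone marrow, 3 lower in hippocampus, 5 higher and 0 lower in parotid, 2 lower in stomach, and 3 higher in hippocampus against spinal cord. Over all genes the same calls numbered 1621, 1501, 1227, 424, 426 and 302. The most abundant tag alone gave 3 lower in hippocampus, 1 in pancreas and 0 in parotid, with 1802, 360 and 427 of all genes. Without the low-count filter 1 was lower in pancreas and 1 higher in female than male libraries, with 735 and 32 of all genes. Without the 6 ids that name no factor 0 were higher in spinal cord than in hippocampus.

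With each library left out, the members that varied numbered 46 to 56. Higher and lower calls ranged over 5 to 10 and 7 to 15 in bone marrow, 8 to 15 and 2 to 8 in hippocampus, 18 to 24 and 2 to 9 in liver, 3 to 9 and 0 to 3 in pancreas, 5 to 10 and 0 to 5 in parotid, 5 to 11 and 2 to 7 in spinal cord, and 15 to 20 and 2 to 8 in stomach. They ranged over 1 to 12 and 0 to 2 in hippocampus against spinal cord, 3 to 6 and 2 to 4 in pancreas against parotid, and 0 to 1 and 0 to 0 in male against female. Of 763 alternative values for 37 named folds 718 kept their call, 44 lost it and 1 turned, Nr1h4 in pancreas against parotid (-2.84 without the female pancreas library, 8.84 at most, without the male parotid library). These 37 were picked among the calls by adjusted p in the same data, so their share cannot stand for all calls. Of all 141 calls, 75 were lost without at least 1 library. Replicate numbers stood for sex, and the fit without that term (no replicate block) kept the calls of all 37 named folds. The causes were not tested. Low counts limit the members most in pancreas, where 18 to 25 of 77 were above 3 counts in a library, although its gene counts (2766056 and 2651622) were not the fewest.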
